A study of Mus musculus with 12 samples.

Results

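The comparison described here sets tumours of 393LN, a mouse lung adenocarcinoma line grown from a mediastinal lymph node, against tumours of 393P, a line grown from a primary lung tumour of the same mouse. Its members are the 4 arrays labelled 393LN and the 4 labelled 393P, 8 of the 12 arrays of the study, and every gene that the chip measures with a probe set of 1 gene symbol, 18193 genes in all. The other 4 arrays are of 344SQ, a line from a subcutaneous site of a second mouse, and served here to estimate the spread and for side-by-side levels. Both mice carried p53R172H∆g/+, a mutant p53 allele beside a wild-type copy, together with a latent oncogene allele, and no group lacks either. The mouse of 393P and 393LN is numbered 393 and that of 344SQ 344. The lines were kept as mass populations in RPMI 1640 with 10% serum, with no treatment named, and what was arrayed is dissected, snap-frozen tumour grown in syngeneic mice, whose age and sex the labels do not give. The labels call 393P non-metastatic and 393LN intermediately metastatic, so the comparison asks how tumours of a nodal line differ from those of a primary line with the same origin. Each is 1 line from 1 mouse, so the differences are between these 2 lines.

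In this model, recombination in scattered cells switches on the oncogene, and lung tumours form within an otherwise normal lung. Mutant p53 raises the rate at which such tumours spread to lymph nodes and other organs. Cells that leave a lung tumour by the lymphatics often lodge in the mediastinal nodes, where they need to survive, adhere and divide. Programs commonly examined in that step are loss of epithelial junctions, gain of mesenchymal and motile genes, chemokine receptors that guide cells to nodes, lymphatic growth factors, and escape from interferon and antigen presentation.

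Levels are given as log2(intensity + 16), on which the lowest possible value is 4.09, and a change is the mean of 393LN minus the mean of 393P on that scale, ± SE from the fit. This scale understates the change of dim genes. The words rose and fell, for 393LN relative to 393P, are kept for genes with a limma adjusted p under 0.05 over all 18193 genes. The labels do not say that the 4 arrays of a line are tumours of separate animals, so p-values measure the spread between these samples, which may be technical. A dissected tumour holds host cells, and fewer cells of a type and less RNA per cell cannot be told apart in such samples.

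The 8 arrays were close to each other. Across genes, the median Pearson r of array pairs was 0.982 within 393LN, 0.983 within 393P and 0.980 between the lines. The first principal component of the 8 arrays held 28.5% of their variance and ran from 393P replicate 1 at -38.5 to 393LN replicate 3 at 39.4. On 393P replicate 1 the actin control probes gave 1.47 times as much signal at the 3' end as at the 5' end, a measure that rises as RNA degrades; on the remaining 7 arrays it was 1.04 to 1.13. Every sample number in the labels is lower in 393LN than in 393P, so line and sample number cannot be told apart. The epithelial genes Cdh1 and Epcam were high on all 8 arrays, at 13.18 to 13.54 and 13.10 to 13.56. In 344SQ the means were 13.51 for Cdh1 and 9.63 for Epcam.

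393LN and 393P tumours differed in 446 genes, 2.45% of those tested. Of these 319 were higher in 393LN, 1.75% of genes tested, and 127 were lower, 0.698%. The split between higher and lower was 234 and 184 after quantile normalization and 206 and 173 with each array centred on its median, so the excess of higher genes varied with the scaling. The 4 values of 1 line did not overlap the 4 of the other in 440 of the 446, against 10.3% of all genes (6.69% with 393LN above and 3.57% with 393LN below). The calls came from these same values, so separation among called genes largely follows from the calling and is no further support. Most changes were small, with a median of 0.73 among higher genes and -0.88 among lower ones. A change of at least 2-fold was seen in 103 genes, 51 higher and 52 lower, and one of at least 4-fold in 5 and 7. Single arrays mattered to these counts. The number higher was 192 without 393LN replicate 2, 105 without 393LN replicate 3, 140 without 393P replicate 2, 108 without 393P replicate 3 and 127 without 393P replicate 4. The number lower was 67, 62, 53, 48 and 65 without the same arrays and 78 without 393LN replicate 4. The number changed at least 2-fold was 53 without 393LN replicate 3 and 64 without 393P replicate 3.

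Among the largest rises were a transporter, a sensory channel and a pair of homeobox genes. Slc14a1, which encodes the urea transporter of red cells and kidney, was at 9.61, 10.64, 11.03 and 10.13 in 393LN and at 5.97, 5.78, 6.09 and 7.85 in 393P. The groups did not overlap, and 393P replicate 4 stood above its own group. The change was 3.93 ± 0.46 (15.2-fold, adjusted p = 0.00237), and the other probe set of the gene rose by 2.94 ± 0.34 (adjusted p = 0.00306). Trpa1, an ion channel that opens to irritants, was at 10.26, 10.18, 10.56 and 9.52 in 393LN and at 7.81, 6.94, 6.83 and 6.64 in 393P. All 4 values of 393LN lay above those of 393P, by 3.07 ± 0.36 on average (8.42-fold, adjusted p = 0.00233). Mean levels in 344SQ were 6.40 ± 0.61 (SD, n = 4) for Slc14a1 and 8.48 ± 0.73 for Trpa1.

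The homeobox gene Irx3, a regulator of patterning in the embryo, was at 10.11, 8.84, 10.43 and 11.59 in 393LN and at 7.55, 8.16, 8.42 and 7.72 in 393P. The groups did not overlap, though 393LN itself spread widely, from 8.84 on replicate 2 to 11.59 on replicate 4. It rose by 2.28 ± 0.43 (4.85-fold, adjusted p = 0.0193), a call lost without 393LN replicate 3 (adjusted p = 0.0631) or 393P replicate 4 (adjusted p = 0.059). Its neighbour Irx5 (chosen after its values were seen) had levels from 7.91 on replicate 2 to 10.07 on replicate 4 in 393LN and between 7.30 and 7.56 in 393P, with a change of 1.44 ± 0.34 (adjusted p = 0.046). Replicate 4 was the highest and replicate 2 the lowest of 393LN for both genes. The call of Irx5 was lost without any of 393LN replicates 1 and 3 and the 4 arrays of 393P (adjusted p = 0.0653 to 0.12). In the order of genes along chromosome 8, the obesity-linked demethylase gene Fto, just before Irx3, rose by 0.67 (adjusted p = 0.0147), while Irx6, 1 place past Irx5, had a change of 0.04 (adjusted p = 0.916). In 344SQ the means were 11.89 ± 0.11 for Irx3 and 10.40 ± 0.23 for Irx5.

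Promoter sequences are printed for Irx3 and for Mcpt1, the protease gene described further on, because each changed together with a neighbour on its chromosome. RefSeq's table of promoters (GRCm38.p6) held 14 of the 24 genes with the largest changes. Shown are the 250 bases before the gene start, 5′ to 3′ on the gene's strand. Capitals mark matches on either strand to TATAAA, the core of a TATA box, and TGATAA, a core bound by GATA factors, which do not overlap in these windows.
Irx3, chr8:91801655-91801904, minus strand: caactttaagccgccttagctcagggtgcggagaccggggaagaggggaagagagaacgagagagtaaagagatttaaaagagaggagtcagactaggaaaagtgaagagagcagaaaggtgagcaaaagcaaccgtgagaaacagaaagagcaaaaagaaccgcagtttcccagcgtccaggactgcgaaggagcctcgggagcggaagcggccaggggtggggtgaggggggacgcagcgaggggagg
Mcpt1, chr14:56017714-56017963, plus strand: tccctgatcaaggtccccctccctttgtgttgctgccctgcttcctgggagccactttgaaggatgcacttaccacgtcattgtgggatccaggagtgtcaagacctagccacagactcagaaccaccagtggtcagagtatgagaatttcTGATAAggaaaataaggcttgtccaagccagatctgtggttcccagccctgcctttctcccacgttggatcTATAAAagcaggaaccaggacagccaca
The Irx3 window held neither motif and 13 CG dinucleotides. The Mcpt1 window held 1 of each motif, starting 28 and 99 bases before the gene start, and 2 CG dinucleotides. Among 32841 such windows in the table, 12.4% held TATAAA and 7.94% held TGATAA, and the median number of CG dinucleotides was 6. These matches describe letters and no measured binding.

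The remaining large rises were spread over metabolism, chromatin and surface proteins. Bst1, a surface enzyme of nicotinamide metabolism first known from bone marrow stroma, was at 10.32, 11.50, 10.80 and 9.85 in 393LN and between 8.52 and 8.64 in 393P, and rose by 2.04 ± 0.31 (adjusted p = 0.00871). Its second probe set rose by 2.24. Cenpv, a centromere protein needed for chromosome segregation, was at 9.92 to 11.26 in 393LN and 8.08 to 8.76 in 393P, and rose by 1.94 ± 0.25 (adjusted p = 0.00407). Pank1, a kinase that starts coenzyme A synthesis, rose by 1.65 ± 0.21 (adjusted p = 0.00416), and Acsl6, which loads fatty acids onto coenzyme A, by 1.74 ± 0.39 (adjusted p = 0.0394). Each of these had a second probe set called the same way, 1.51 for Pank1 and 1.96 for Acsl6. Further probe sets of Pank1 had changes of 0.45 (adjusted p = 0.111) and 0.37 (adjusted p = 0.626) and were not called. Car2, a carbonic anhydrase, rose by 1.58 ± 0.32 (adjusted p = 0.0253) and Bnc1, a zinc finger factor of proliferating keratinocytes, by 1.80 ± 0.33 (adjusted p = 0.0173). Tmem252, a transmembrane protein of little known function, had the weakest call, 1.52 ± 0.36 (adjusted p = 0.0498). Calls were lost without any of 7 arrays for Acsl6, all but 393LN replicate 4 (adjusted p = 0.0689 to 0.115), and without any of 7 for Tmem252, all but 393P replicate 2 (0.063 to 0.143). That of Car2 was lost without 393LN replicate 2 or 3 or 393P replicate 1, 3 or 4 (0.0531 to 0.0725), and that of Bnc1 without 393P replicate 2, 3 or 4 (0.0536 to 0.0592).

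**Figure D1:**
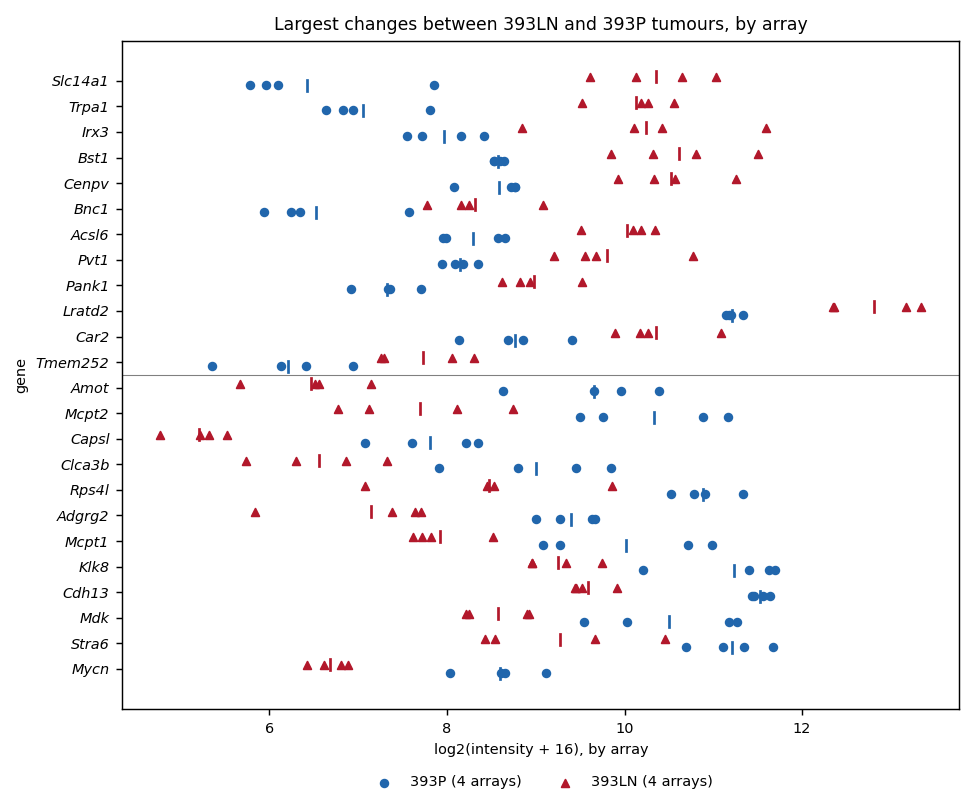
Levels of the 12 largest rises (top) and 12 largest falls (bottom) on each of the 8 arrays, as log2(intensity + 16). Triangles are 393LN, circles 393P and vertical bars group means; no gene's groups overlap, as the rule for naming required, and Slc14a1 and Amot have the widest gaps between means (3.93 and -3.19).

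Lratd2 and Pvt1, 2 of the 12 largest rises, lie on either side of Myc on chromosome 15. Lratd2, a protein with a lecithin retinol acyltransferase domain, was at 12.35, 13.34, 12.34 and 13.17 in 393LN and between 11.14 and 11.34 in 393P. It rose by 1.59 ± 0.21 (adjusted p = 0.00453), and its mean in 344SQ was 9.30. Pvt1, a long non-coding RNA beside Myc, was at 9.68, 10.77, 9.21 and 9.55 in 393LN and between 7.95 and 8.35 in 393P, and rose by 1.66 ± 0.26 (adjusted p = 0.0111). Its other 4 probe sets had changes of -0.48 to 0.01, none of them called, and over the mean of all 5 the change was 0.16 (adjusted p = 0.536). The values of Myc itself, a driver of growth likewise chosen after they were seen, were 12.23, 13.02, 13.01 and 12.63 in 393LN and at 10.93, 12.29, 12.09 and 12.08 in 393P, and its change of 0.88 ± 0.27 did not pass (adjusted p = 0.115). The Myc groups overlapped, and 393P replicate 1, the array with the high actin ratio, was the lowest. The 4 tested genes before Lratd2 had changes of -0.85 to -0.04, none called.

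The single strongest call was an unnamed transcript, chosen after its values were seen. The non-coding RNA 3110039M20Rik on chromosome 12 was at 10.07, 9.24, 9.82 and 10.08 in 393LN and at 5.79, 5.81, 6.16 and 5.99 in 393P, a change of 3.87 ± 0.18 (14.6-fold, adjusted p = 9.67e-07). It was at 5.77 ± 0.18 (SD, n = 4) in 344SQ. Of its 8 nearest tested genes in order, G2e3, a ubiquitin ligase, and Pnpla8, a mitochondrial phospholipase, rose by 0.93 and 0.59, while Nova1 and Prkd1 on either side had changes of -0.20 (adjusted p = 0.627) and 0.63 (adjusted p = 0.414).

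**Figure D2:**
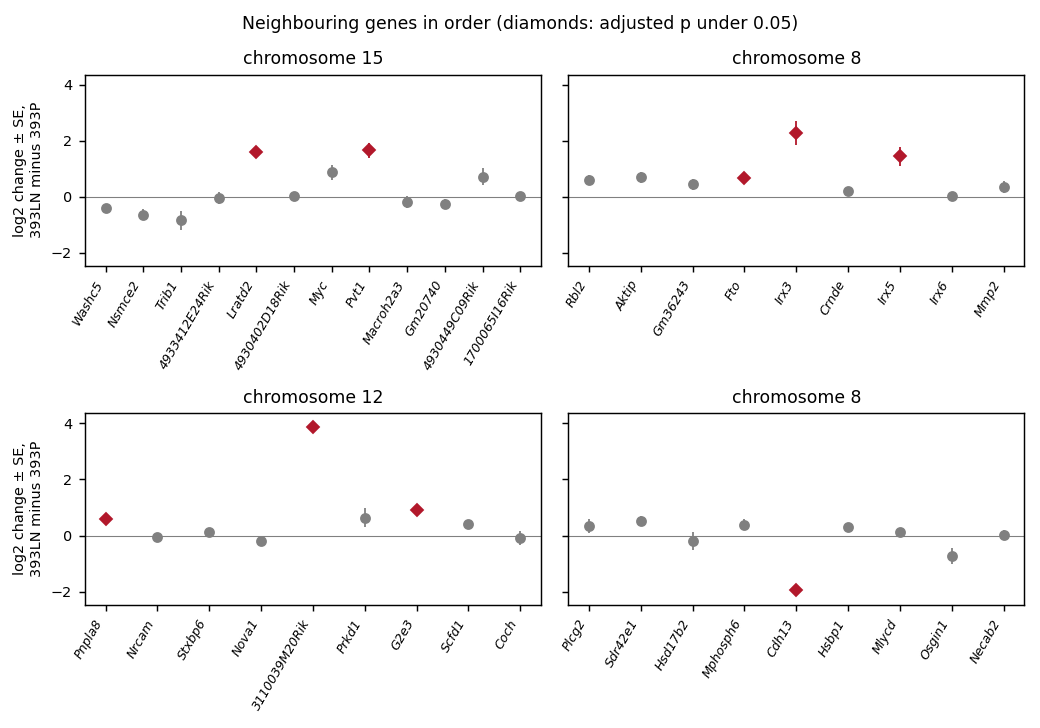
Changes (393LN minus 393P, log2, ± SE of the fit) of genes in their order along the chromosome around Lratd2 and Pvt1, Irx3, 3110039M20Rik and Cdh13. Diamonds passed at adjusted p under 0.05: Lratd2 (1.59) and Pvt1 (1.66) stand above genes between and around them, Irx3 (2.28) and Irx5 (1.44) above Fto (0.67), and Cdh13 (-1.94) is the 1 diamond in its panel.

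The falls included adhesion, growth factor and protease genes. Amot, which encodes angiomotin, a junction protein that binds the Hippo effector YAP, was at 6.52, 5.67, 6.56 and 7.14 in 393LN and at 8.63, 9.66, 9.96 and 10.39 in 393P. The groups were well apart, and it fell by 3.19 ± 0.36 (9.11-fold lower, adjusted p = 0.00233). Its other 2 probe sets had changes of -0.07 and -0.18 and were not called, so the probe sets of Amot disagreed. Cdh13, a cadherin tethered to the membrane by a lipid anchor, was at 9.91, 9.52, 9.45 and 9.44 in 393LN and between 11.44 and 11.64 in 393P. It fell by 1.94 ± 0.22 (adjusted p = 0.00233), and a second probe set fell by 1.75 (adjusted p = 0.00903), and its mean in 344SQ was 11.21 ± 0.53. Mycn, a relative of Myc, was at 6.42, 6.80, 6.62 and 6.89 in 393LN and at 8.65, 9.11, 8.61 and 8.03 in 393P. It fell by 1.92 ± 0.28 (adjusted p = 0.00691), while its other probe sets had changes of -0.41 and -0.53 that were not called.

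Klk8, a secreted serine protease of epidermis and brain, was at 8.96 to 9.75 in 393LN and 10.21 to 11.70 in 393P and fell by 1.98 ± 0.31 (adjusted p = 0.0104). Mdk, the heparin-binding growth factor midkine, fell by 1.93 ± 0.38 (adjusted p = 0.0234). Stra6, the receptor for retinol uptake, fell by 1.93 ± 0.40 (adjusted p = 0.0289). Capsl, a calcium-binding protein, fell by 2.60 ± 0.25 (adjusted p = 0.00106), and Clca3b, of a family that modulates chloride channels, fell by 2.45 ± 0.41 (adjusted p = 0.0131). Adgrg2, an adhesion G protein-coupled receptor, fell by 2.25 ± 0.41 (adjusted p = 0.0173), and Rps4l, a copy of a ribosomal protein gene that can share signal with its relatives, fell by 2.41 ± 0.44 (adjusted p = 0.017). Calls were lost for Rps4l without 393P replicate 3 (adjusted p = 0.0531) and for Adgrg2 without 393P replicate 2 or 3 (0.0552 and 0.0571). They were lost for Mdk without replicate 2 or 3 of either line (0.0619 to 0.0784), and for Stra6 without these or 393P replicate 4 (0.0684 to 0.0838).

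Further falls, chosen after their values were seen, were in Bmp8b, a bone morphogenetic protein (-1.66 ± 0.14, adjusted p = 0.000461), and Wtip, a junctional LIM protein (-1.88 ± 0.25, adjusted p = 0.00422). Bmp8b was dim, with means of 4.77 in 393LN and 6.42 in 393P. Its change ran from -2.56 to -0.83 over the alternative settings, and its other probe set fell by 1.19 (adjusted p = 0.0194). The water channel gene Aqp1 fell by 1.70 (adjusted p = 0.0173), a call lost without 393LN replicate 3 or 393P replicate 2 or 3 (0.0548 to 0.0588). The surface antigens Psca and Ly6d, both lipid-anchored members of the Ly6 family on chromosome 15, had changes of -1.30 (adjusted p = 0.0112) and -1.46 (adjusted p = 0.041). Psca was at 10.59 to 11.36 in 393LN and 12.14 to 12.28 in 393P. The call of Ly6d was lost without any of 7 arrays, all but 393LN replicate 3 (0.0609 to 0.107).

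Mcpt1 and Mcpt2, chymases of mucosal mast cells that lie side by side on chromosome 14, both fell, and were the 2 called among 15 measured mast cell and basophil genes, beside 0.698% of all genes called lower. Mcpt2 was at 6.78, 7.13, 8.12 and 8.74 in 393LN and at 9.76, 11.17, 10.88 and 9.50 in 393P, and fell by 2.64 ± 0.44 (6.22-fold, adjusted p = 0.0127). Mcpt1 was at 7.61, 7.72, 7.83 and 8.51 in 393LN and at 9.28, 10.98, 10.71 and 9.08 in 393P, and fell by 2.09 ± 0.44 (adjusted p = 0.03). Neither gene's groups overlapped, as the rule for naming the largest falls required, and in 393P replicates 2 and 3 were high for both. The call of Mcpt1 was lost without 393LN replicate 1, 2 or 3 or 393P replicate 2 or 3 (adjusted p = 0.0612 to 0.086). The median of the 15 was -0.52, beside 0.01 for all genes, and their mean level was 7.37 to 7.67 on the 393LN arrays and 7.91 to 8.43 on those of 393P. That mean includes Mcpt1 and Mcpt2, and a mean without them was not taken. Cpa3, a carboxypeptidase of mast cell granules, had a change of -0.79 (adjusted p = 0.432) and Mcpt4, the next gene after Mcpt2, of -0.15 (adjusted p = 0.852); both were chosen after their values were seen. Whether the number of mast cells had a part in the fall was not tested. In 344SQ the means were 13.03 ± 0.05 (SD, n = 4) for Mcpt2 and 11.96 ± 0.61 for Mcpt1.

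The 37 gene lists cover programs examined in spread, other pathways and host cell types. With both directions counted, their genes were called about as often as genes in general, but the split between directions differed. Of 991 distinct measured list genes 5 were higher and 14 lower, whereas 319 of all 18193 genes were higher and 127 lower. In either direction 1.92% of list genes were called, beside 2.45% of all genes. The median change of list genes was -0.01, beside 0.01 for all genes. At the share over all genes, a list of 42 genes would hold about 1 called gene, so counts of 0 or 1 in the lists that follow are near the background. None of 42 genes of epithelial junctions was called (median -0.12), none of 34 of mesenchymal transition (median 0.14) and none of 32 of lymphatic and blood vessel growth (median -0.06). Cdh1, which encodes E-cadherin, had a change of -0.06 ± 0.13 (adjusted p = 0.877) and Esrp1, a splicing factor of epithelia, of -0.36 (adjusted p = 0.524). Vim, the mesenchymal filament vimentin, was at 12.99 to 14.01 in 393LN and 12.13 to 13.34 in 393P, a change of 0.52 (adjusted p = 0.366), and the repressor Zeb1 had a change of 0.31 (adjusted p = 0.308). The lymphatic growth factor gene Vegfc had a change of 0.51 (adjusted p = 0.54) and Vegfa of -0.26 (adjusted p = 0.5). The receptors Ccr7 and Cxcr4, which guide cells to nodes, had changes of 0.03 (adjusted p = 0.989) and 0.20 (adjusted p = 0.8). The vessel receptors Flt1 and Flt4 had changes of -1.003 (adjusted p = 0.0504) and -0.90 (adjusted p = 0.0797), and Cnn1 and Tpm2, of the contractile cytoskeleton, of -0.81 (adjusted p = 0.0684) and -0.80 (adjusted p = 0.0759). Cnn1 was near the floor in 393LN, with means of 4.15 there and 4.95 in 393P.

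Adhesion and matrix lists each had a single fall. Of 38 collagen and matrix genes, 1 was called (median 0.01): Nid1, a basement membrane linker, fell by 0.79 (adjusted p = 0.0147). Of 29 integrin and adhesion genes, 1 was called (median -0.11): the focal adhesion gene Vcl fell by 0.40 (adjusted p = 0.046), and lost the call without any of the arrays except 393P replicate 1 (adjusted p = 0.0698 to 0.12). Of 34 matrix proteolysis genes, Klk8 was the 1 called (median -0.03). Of 44 chemokine and cytokine genes, Ccl17, a ligand that draws T cells, was the 1 called (median -0.04) and fell by 1.20 (adjusted p = 0.0187), losing the call without 393LN replicate 2 or 3 or 393P replicate 2, 3 or 4 (0.0512 to 0.0611). The integrin gene Itgb7, an adhesion receptor of leukocytes chosen after its values were seen, was dim, with means of 5.49 in 393LN and 6.80 in 393P. It fell by 1.31 (adjusted p = 0.0394). That call was lost without any of 6 arrays, all but 393LN replicate 4 and 393P replicate 1 (0.0795 to 0.112).

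Of 30 MAPK feedback genes, Dusp1, a phosphatase of MAP kinases, was the 1 called (median -0.05) and fell by 1.04 (adjusted p = 0.0152), a call lost without 393P replicate 2 (0.0513) or 3 (0.0549). Of 38 WNT genes, the ligand gene Wnt7a was the 1 called (median -0.01), at 8.27 to 9.42 in 393LN and 10.03 to 10.13 in 393P, and fell by 1.22 (adjusted p = 0.0111). None of 25 Notch genes (median 0.04), 38 of TGF-beta and BMP (0.06) or 16 of ERBB signalling (-0.06) was called. Jag2, a Notch ligand, had a change of 0.04 (adjusted p = 0.913) and Notch1 of -0.12 (adjusted p = 0.858). Of 24 imprinted growth genes, the zinc finger gene Plagl1 was the 1 called (median -0.10) and fell by 1.10 (adjusted p = 0.0193), a call lost without 393LN replicate 3 (0.0513) or 393P replicate 2 (0.0625) or 3 (0.0543).

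Among lists of growth and metabolism, calls went both ways. Of 49 cell cycle genes, 1 was called (median -0.02): Rrm2, a ribonucleotide reductase subunit, rose by 0.92 (adjusted p = 0.0211), with 2 further probe sets up by 1.37 and 1.11, and lost the call without 393LN replicate 3 (0.0692) or 393P replicate 3 (0.0512) or 4 (0.0559). Mki67, a marker of dividing cells, had a change of 0.04 (adjusted p = 0.955). Of 34 hypoxia and glycolysis genes, Egln1, an oxygen sensor, rose by 0.47 (adjusted p = 0.0263) and Slc16a3, a lactate exporter, fell by 0.76 (adjusted p = 0.0147), with a list median of -0.09. Egln1 lost its call without 393LN replicate 2 or 4 or 393P replicate 2, 3 or 4 (0.0595 to 0.0729), and Slc16a3 without 393P replicate 3 (0.0519). Sqle, a sterol synthesis enzyme, was the 1 of 30 lipid genes called (median -0.04) and fell by 0.68 (adjusted p = 0.0142), and Psph, of serine synthesis, was the 1 of 30 in the list of unfolded protein and amino acid response (median -0.06) and fell by 0.50 (adjusted p = 0.0489). Zmat3, a p53 target, was the 1 of 26 p53 targets called (median 0.06) and rose by 0.98 (adjusted p = 0.041). The calls of Psph and Zmat3 were each lost without any of 7 arrays, for Psph all but 393LN replicate 1 (0.0792 to 0.126) and for Zmat3 all but 393P replicate 1 (0.055 to 0.114). None of 28 redox genes was called (median 0.07).

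Lineage and host cell lists gave 3 further calls. Anxa10, an annexin of the stomach, was the 1 of 35 gut and foregut genes called (median -0.06) and fell by 1.45 (adjusted p = 0.0394), lost without any of 7 arrays, all but 393P replicate 1 (0.0712 to 0.104). Sprr1a, a cornified envelope protein, fell by 1.30 (adjusted p = 0.00422), the 1 call among 35 squamous and keratin genes, whose median of 0.35 had the opposite sign. The squamous list's mean level was 7.59 to 9.18 over the 393LN arrays and 7.58 to 8.57 over those of 393P. Eno3, a muscle enolase, rose by 0.90 (adjusted p = 0.048), the 1 call among 28 skeletal muscle genes (median 0.23), and lost it without any of 7 arrays, all but 393LN replicate 4 (0.0611 to 0.139). Averaged over the muscle list, 393LN replicate 1 was at 8.78, above the 7.05 to 7.27 of the line's other 3 arrays. Eno3 was no higher on that array than on 393LN replicates 2 and 3, at 11.38 against 11.58 and 11.82.

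No member was called in the other lists of immune and stromal cells. These were macrophage and monocyte (32 measured, median -0.11), neutrophil (20, -0.03), T and NK cell (32, 0.16), B and plasma cell (19, 0.30), fibroblast (23, -0.02), endothelial and pericyte (29, 0.06), adipose (17, 0.09), red cell and platelet (12, -0.02) and lymph node stroma (12, 0.03). Antigen presentation and interferon lists had none either: 41 interferon genes (median -0.11), 19 of MHC class I (0.03) and 18 of MHC class II and dendritic cells (-0.02). The lung lineage list had none of 28 (median 0.00), though Sox2, a factor of airway and squamous cells, spread widely, at 12.28, 10.42, 8.17 and 8.50 in 393LN and 9.19, 7.41, 5.17 and 5.89 in 393P. Its groups overlapped, and the change of 2.93 ± 1.09 did not pass (adjusted p = 0.203).

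**Figure D3:**
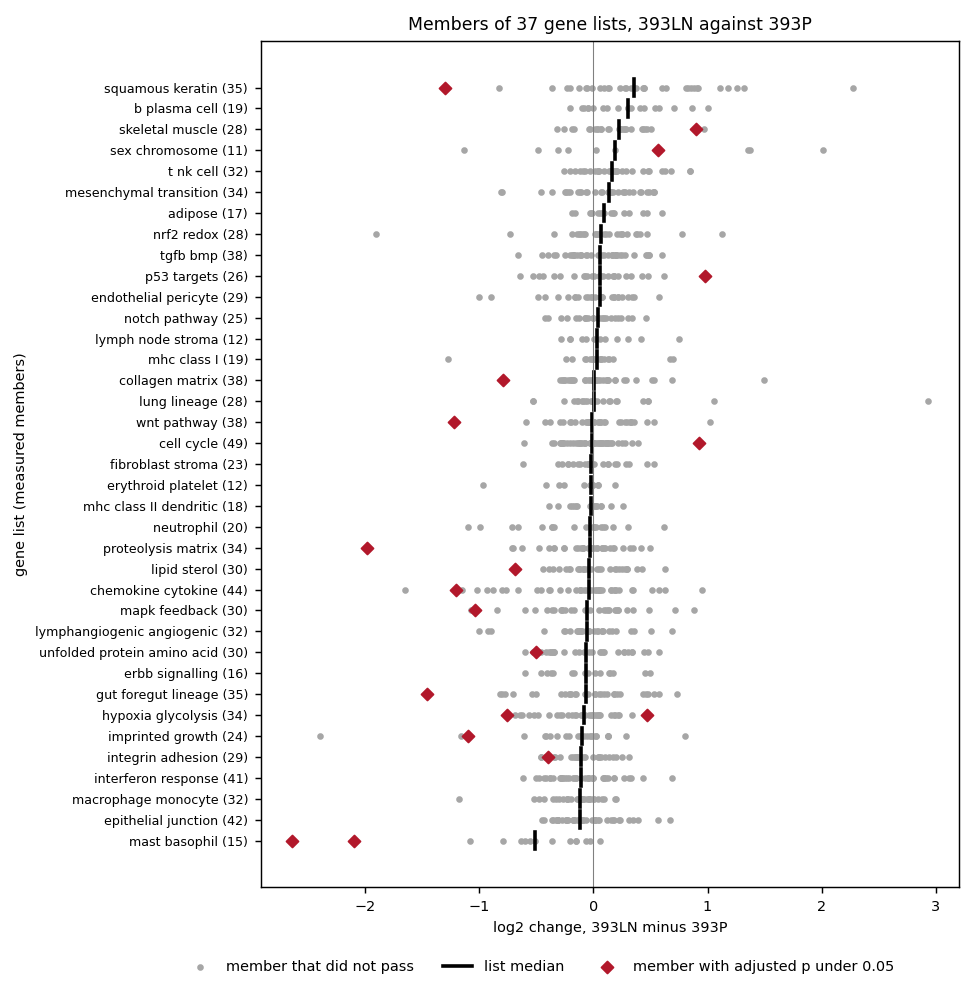
Change of each measured member of 37 gene lists (393LN minus 393P, log2), with the list median as a black bar and members that passed at adjusted p under 0.05 as diamonds. Medians lie between -0.52 for mast cell and basophil genes and 0.35 for squamous and keratin genes, and no list has more than 2 called members.

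Genes higher in 393LN were unevenly spread over the chromosomes, a pattern chosen after the calls were seen and given as a description. Chromosome X held 58 of them among 618 tested (9.39%), chromosome 8 held 71 of 940 (7.55%), chromosome 12 held 36 of 624 (5.77%) and chromosome 16 held 22 of 598 (3.68%), beside 1.75% over all genes. Together these 4 chromosomes held 187 of the 319 higher genes, 58.6%, and 15.3% of the genes tested. They held 14 of the 127 lower genes, 11.02%, with 0 on chromosome 16. Chromosome 1 (23 higher of 1066, 2.16%) and chromosome 10 (17 of 865, 1.97%) were also slightly above the 1.75% over all genes. Lower genes were most frequent on chromosome 14 (13 of 648, 2.01%) and chromosome 15 (12 of 729, 1.65%), beside 0.698% over all genes. The share of higher genes on the 4 chromosomes was 56.8% to 70.9% over the 19 alternative settings, each array centred on its median (62.6%) and quantile normalization (61.1%) included.

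The counts themselves rested on several arrays. Without 1 array at a time they ran from 29 to 61 on chromosome 8, 11 to 36 on chromosome 12, 5 to 34 on chromosome 16 and 21 to 57 on chromosome X. In the other settings they ran from 23 to 109 on chromosome 8 and 11 to 53 on chromosome 12. On chromosome X they then ran from 24 to 81, and on chromosome 16 from 2 to 31. The count on chromosome 16 was thus not stable. Chromosome 8 had 38 without 393P replicate 2, 29 without 393LN replicate 3, 30 without 393P replicate 3 and 36 without 393P replicate 4. In that same order of arrays chromosome 12 had 16, 12, 12 and 11, chromosome 16 had 8, 5, 7 and 6, and chromosome X had 23, 24, 21 and 37. Without 393LN replicate 2 chromosomes 12 and 16 had 22 and 9, and without 393LN replicate 4 chromosomes 12, 16 and X had 23, 34 and 36. Chromosome 16 had 14 without 393LN replicate 1.

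**Figure D4:**
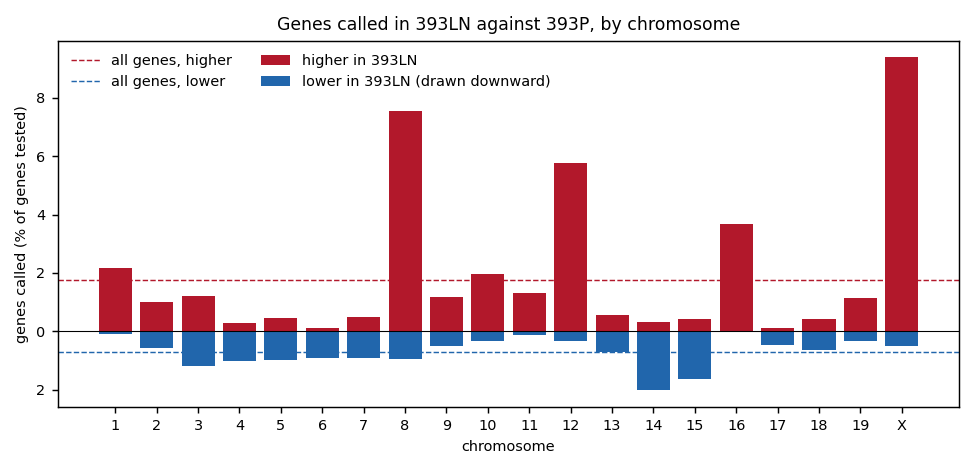
Share of tested genes on each chromosome that were higher (bars above 0) or lower (bars drawn downward) in 393LN at adjusted p under 0.05, in percent. Dashed lines mark the shares over all genes, 1.75% and 0.698%. Chromosomes X (9.39%), 8 (7.55%), 12 (5.77%) and 16 (3.68%) stand furthest above the upper line, and chromosomes 1 (2.16%) and 10 (1.97%) lie slightly above it.

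The shift was not limited to called genes. Among the 9096 brighter genes, those with a mean level above the median gene, the median change was 0.04 in all, 0.36 on chromosome X, 0.26 on chromosome 12, 0.21 on chromosome 8 and 0.20 on chromosome 16. It was 0.16 on chromosome 10, 0.11 on chromosome 1, -0.15 on chromosome 15 and -0.10 on chromosome 14. The change was above 0 for 84.5% of brighter genes on chromosome X and 81.1% on chromosome 12, beside 56.8% over all of them. On each array the median of a chromosome's brighter genes was set against the array's own. For chromosome 8 this was 0.12, 0.07, 0.10 and 0.06 in 393LN and -0.08, -0.11, -0.09 and -0.07 in 393P, with no overlap. For chromosome X it was 0.11, 0.15, 0.14 and 0.17 in 393LN and -0.12, -0.25, -0.18 and -0.04 in 393P, again with no overlap. For chromosome 12 it was 0.00, 0.10, 0.24 and 0.09 against -0.07, -0.08, -0.12 and -0.19, and for chromosome 16 it was 0.09, 0.17, 0.13 and -0.06 against -0.09, -0.07, -0.05 and -0.12. The chromosome 16 values overlapped, since 393LN replicate 4 lay within the range of 393P. Lack of overlap was not particular to chromosomes 8 and X. It was also seen on chromosomes 1, 10 and 12, with 393LN above. On chromosomes 5, 6, 7, 14, 15 and 18 it was seen with 393LN below.

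On chromosome 8 the larger shift began part of the way along. In windows of 50 neighbouring brighter genes (the last window of a chromosome is longer), the 5 windows up to Smad1 had median changes of 0.09, 0.22, 0.01, 0.02 and 0.06 and 2 higher genes in all. The 5 windows from Otud4 to Itgb1 at the far end had medians of 0.54, 0.47, 0.37, 0.36 and 0.37 and 17, 14, 10, 8 and 14 higher genes. In each of these 5 all 4 arrays of 393LN lay above all 4 of 393P. Such separation was not particular to these windows. It was also seen with small medians, as from Itm2c to Pam on chromosome 1 (0.10, 393LN above). From Chpf2 to Ctbp1 on chromosome 5 (-0.09) it was seen with 393LN below. On chromosome X the windows had medians of 0.30, 0.44, 0.39 and 0.35 over its whole length, and on chromosome 12 the highest were 0.39 (Adi1 to Prps1l3) and 0.32 (Foxa1 to Fntb). Of 170 windows over all chromosomes 11 were above 0.3 and 2 below -0.2, and the range was -0.21 to 0.54. The lowest were Abhd6 to Appl1 on chromosome 14 and Nipal2 to Tatdn1 on chromosome 15. Chromosomal copy number in these lines was not analysed here.

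**Figure D5:**
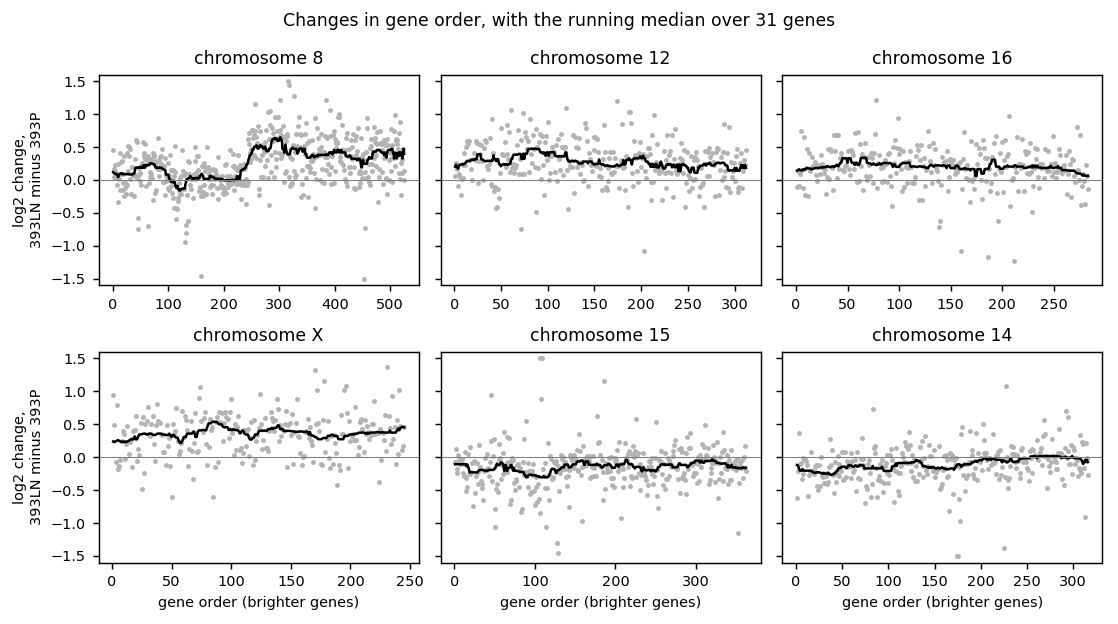
Change of each brighter gene (grey, 393LN minus 393P, log2; values beyond 1.5 either way are drawn at 1.5) in its order along chromosomes 8, 12, 16, X, 15 and 14, with the running median over 31 genes as a line. On chromosome 8 the larger rise comes near the middle of the gene order, where the window medians go from 0.06 to 0.54. Nearer its start, the window from 2610005L07Rik to Purg has a median of 0.22. On X, 12 and 16 the line is above 0 along the whole length.

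The following genes of these chromosomes were chosen after their values were seen. On chromosome 8, Scoc, a coiled-coil protein of the Golgi, was at 11.58, 11.17, 11.44 and 11.39 in 393LN and at 10.11, 10.29, 10.21 and 10.36 in 393P. It rose by 1.15 ± 0.11 (adjusted p = 0.000901), and its other probe set by 1.402. Also on chromosome 8, the peroxisomal protease gene Lonp2 rose by 1.21 (adjusted p = 0.0142), the arginine methyltransferase gene Prmt7 by 1.06 (adjusted p = 0.0152) and the ribonuclease subunit gene Rnaseh2a by 1.04 (adjusted p = 0.0147). The mitochondrial helicase gene Ddx28 rose by 1.21 (adjusted p = 0.0157), a call lost without 393LN replicate 3 (0.0548). Cdh13 and Anxa10, both falls, lie on the same chromosome.

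On chromosome X, the mitochondrial carbonic anhydrase gene Car5b rose by 1.36 (adjusted p = 0.00233), Plac1, a gene of placenta, by 1.33 (adjusted p = 0.00271) and the mitochondrial import chaperone gene Timm8a1 by 1.16 (adjusted p = 0.0122). Tsc22d3, a leucine zipper induced by glucocorticoids, rose by 1.08 (adjusted p = 0.0142). Its other probe sets had changes of 1.29 (adjusted p = 0.0199), 1.42 (adjusted p = 0.065) and -0.28 (adjusted p = 0.403). Eif2s3x, a translation factor subunit, rose by 0.57 (adjusted p = 0.0334), the 1 call among 11 genes of sex chromosomes (median 0.19), lost without 393P replicate 2 or 3 or any array of 393LN (0.0529 to 0.0923). Xist, the RNA that silences 1 X chromosome in females, was at 6.78 to 7.04 in 393LN and at 7.04, 6.83, 7.35 and 10.92 in 393P, so 1 array of 393P stood apart (adjusted p of the change = 0.684). The Y-linked gene Eif2s3y was at 8.93 to 10.15 in 393LN and at 6.58, 8.92, 9.34 and 4.88 in 393P. 393P replicates 1 and 4 were lowest, and the chromosome X medians of those arrays were -0.12 and -0.04, the nearest of 393P to 393LN. The part of host cells of either sex in the chromosome X shift was not tested.

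On chromosome 12, Nubpl, an assembly factor of respiratory complex I, rose by 1.13 (adjusted p = 0.0135) and the kinase gene Map4k5 by 1.09 (adjusted p = 0.00876). On chromosome 16, Ydjc, a sugar deacetylase homologue, rose by 1.48 (adjusted p = 0.0193), Pdia5, a disulphide isomerase, by 1.42 (adjusted p = 0.0193) and Tiam1, an activator of Rac, by 1.08 (adjusted p = 0.0173). Ydjc lost its call without 393LN replicate 2 or 3 or 393P replicate 4 (0.0515 to 0.06), Pdia5 without 393LN replicate 2 or 3 or 393P replicate 3 or 4 (0.0519 to 0.0611), and Tiam1 without 393LN replicate 3 or 393P replicate 2 or 4 (0.0534 to 0.0565). Rises also occurred elsewhere. Bckdhb, of branched-chain amino acid breakdown, rose by 1.18 (adjusted p = 0.00233) on chromosome 9 and Prnp, the prion protein gene, by 1.04 (adjusted p = 0.0104) on chromosome 2. Outside the 4 chromosomes 132 genes were higher and 113 lower.

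The choice of probe set bore on some of these calls. With the mean of all probe sets of a gene in place of the brightest, the change was 0.39 for Lonp2 (adjusted p = 0.0779), 0.36 for Prmt7 (adjusted p = 0.0711) and 0.45 for Tiam1 (adjusted p = 0.152). It was 0.43 for Egln1 (adjusted p = 0.145) and 0.63 for Eif2s3x (adjusted p = 0.0859). It was -0.40 for Wnt7a (adjusted p = 0.0727), -0.48 for Nid1 (adjusted p = 0.103), -0.42 for Plagl1 (adjusted p = 0.152), -0.85 for Anxa10 (adjusted p = 0.135) and -0.19 for Vcl (adjusted p = 0.841), so these calls ended. Of the 64 called genes named, 27 had another probe set, of which 12 had one called the same way and 0 had one called the opposite way.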

How the data were processed

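RNA of 12 tumour samples was measured on 1-colour Affymetrix mouse arrays, 4 per line. The design text names the 430A 2.0 chip, a smaller design than the 45101 probe sets of the table call for. The authors deposited probe set intensities on a linear scale, from a floor of 1; each is 2 to a power with 2 decimals. The software that made them: not given in the sources used here. Array medians were 7.19 to 7.29 on the log2 scale, and no further normalization was applied. Depth does not apply; the number of arrays limits the precision.

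Values were taken as log2(intensity + 16). For each gene with 1 symbol in the platform annotation (34945 probe sets; 932 have several symbols, 9160 none and 64 are controls), the probe set brightest on average across the 12 arrays was used, with no filter. A mean per line was fitted with limma 3.58.1 in R 4.3.3 (9 residual degrees of freedom, default eBayes), two-sided, with Benjamini-Hochberg adjustment over 18193 genes; other probe sets were adjusted over all 34945. Groups come from the labels; replicate numbers are in accession order. The script was tested on simulated data. The members, lists and tests were chosen with earlier results of these data known.

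Genes were named by rule: among called genes with no overlap and a higher group mean outside the lowest 40% of group means, the 12 largest rises and 12 largest falls, unnamed transcripts skipped; for each list up to 4 called members, else the 2 with the smallest p; and 15 listed by symbol, 14 of them measured. Gene lists were described by counts and medians and not tested. Chromosomes and gene order come from RefSeq (GRCm38.p6), for 18145 genes, matched by Entrez ID where it was found and otherwise by symbol. Alternatives were 19 settings of scaling, pseudocount (1 and 64), filter (25% and 50%), probe set choice, arrays in the fit, and arrays left out; the last of these, leaving out 393P replicate 1 and 393LN replicate 3 together, was chosen after seeing the data. The name of 1 allele that all groups share is not reported here.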

Additional observations from a re-analysis of the deposited data

Results flagged for a closer look

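In 23 of 318 groups of 4 arrays, for a named gene or the mean of a list, 1 array stood apart. The measure was the array's gap to its nearest value as a share of the group's range. The gap itself can be small, as for Psca in 393P (12.28, nearest other value 12.16). Chance alone sets apart about 1 group in 20, a figure that does not cover values tied at the floor, as for Cnn1. Replicate 4 of 393P was high for Xist (10.92) and Slc14a1 (7.85) and low for Rrm2 (9.90) and Ddx58 (8.88). Replicate 1 of 393P, the array with the high actin ratio, was low for Myc (10.93), Epcam (13.22) and Ddx28 (8.15) and high for Flt4 (10.08). Replicate 2 of 393P was low for Cenpv (8.08) and high for the mean of chemokine and cytokine genes (9.30), and replicate 3 was high for Psca (12.28) and Tiam1 (7.61).

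Replicate 1 of 393LN was high for skeletal muscle genes, with a list mean of 8.78, and for Cdh13 (9.91), Flt1 (10.12), Nid1 (11.02) and Smad1 (12.09). Replicate 3 of 393LN was high for Uty (8.98) and Jag2 (9.75) and low for MHC class II and dendritic genes (8.53). Replicate 4 of 393LN was low for epithelial junction genes (10.48) and for lipid genes (10.56). Replicate 2 of 393LN was high for Cnn1 (4.33), whose other values in 393LN lay at the floor.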

How the results depend on the processing

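The 19 settings changed counts more than directions. Genes higher numbered 319, against 206 with each array centred on its median, 118 with the 8 arrays fitted alone, 89 without both end arrays (393P replicate 1 and 393LN replicate 3), and 105 to 247 without 1 array at a time. Genes lower numbered 127, against 56 with the 8 arrays alone, 66 without both end arrays and 48 to 166 without 1 array. Genes changed at least 2-fold numbered 103, against 67, 57 and 53 to 134. Of 155 calls without both end arrays 127 were shared with the 446. Of 64 called genes named, 20 kept the call in every setting that tested them and 30 lost it without some 1 array. No called gene reversed except Vcl, whose probe set with the largest variance had a change of 0.023. The other reversals were of genes that did not pass: with each array centred, Ccr7 (-0.027), Jag2 (-0.018) and Mki67 (-0.013); with quantile normalization, Jag2 (-0.061) and Mki67 (-0.039); with the largest-variance probe set, Cdh2 (-0.023), Jag2 (-0.026), Lfng (0.28) and Slc7a11 (0.21); without both end arrays, Ccr7 (-0.076). Without 1 array they ran from -0.25 to 0.23 for Ccr7, from -0.0057 to 0.061 for Jag2 and from -0.13 to 0.21 for Mki67. With the 8 arrays fitted alone, Irx3 (adjusted p = 0.0774), Mcpt2 (0.0564), Mcpt1 (0.0687), Clca3b (0.0525), Rps4l (0.0631), Mdk (0.0628) and Stra6 (0.0842) were among the calls lost, and without both end arrays Bst1 (0.0524) and Irx3 (0.116). Prnp (0.0727) and Tsc22d3 (0.0605) lost theirs with the largest-variance probe set. The cause of these differences was not tested. No paired analysis was possible because the labels give no replicate numbers shared by the lines.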
